A study of Mus musculus with 2 samples.

Results

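Endothelial cells can call T cells into a tumor, or keep them out, with a small set of secreted chemokines. The genes described here are 8 of the 33696 genes counted in 2 single-cell RNA sequencing libraries of mouse mammary tumors, and they were chosen by name, for their place in T-cell recruitment. Cxcl9 (ENSMUSG00000029417), Cxcl10 (ENSMUSG00000034855), Cxcl11 (ENSMUSG00000060183), Ccl5 (ENSMUSG00000035042) and Cxcl16 (ENSMUSG00000018920) are genes of T-cell chemokines. Only transcripts were counted, so whether these mice made a working protein from each gene was not tested. Cxcl12 (ENSMUSG00000061353) codes for a chemokine that vessels and stroma make, Cxcr4 (ENSMUSG00000045382) for its signaling receptor and Ackr3 (ENSMUSG00000044337) for the receptor that takes it up and clears it.

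Both tumors came from MMTV-PyMT, a transgene that expresses the polyoma middle T oncogene under a mammary tumor virus promoter. The lines PyMT-M (High-MAC, rich in macrophages) and PyMT-N (Low-MAC, rich in neutrophils) were grown in female C57BL/6 mice that received the cells at 6 to 8 weeks of age; no treatment is named. Each group is 1 cell line, so a difference between the libraries is at most a difference between 2 lines. After digestion, cells carrying CD45 or Ter119 were depleted, CD31 and CD144 positive cells were enriched on magnetic beads and sorted, and the cells of 3 tumors were pooled into 1 library per line. With 1 library per line there is no replicate, no difference between the lines was tested, and line, pool and library cannot be told apart. Every interval below is a 95% exact counting interval, which covers counting error only.

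Background on the pathway helps to read the values. Cxcl9, Cxcl10 and Cxcl11 are induced by interferons and act through the receptor Cxcr3 on activated T cells and natural killer cells. Ccl5 draws T cells and monocytes, and Cxcl16, which is made as a membrane protein and shed by proteases, acts through Cxcr6. Cxcl12 guides cells that carry Cxcr4, which in endothelium marks growing tips, while Ackr3 scavenges Cxcl12 and also Cxcl11.

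The sorted cells were a mixture. Cells with at least 200 genes and at most 10% mitochondrial transcripts were kept, which left 6719 of 7821 barcodes in PyMT-M and 5607 of 6974 in PyMT-N, with medians of 21262 and 18558 UMIs (unique transcript counts). Blood endothelial cells (at least 5 UMIs of Pecam1, Flt1, Emcn and Kdr and at most 1 of Krt8, Krt18 and Rhox5) numbered 583 in the PyMT-M library and 1013 in the PyMT-N library. All 10 of 10 blood endothelial markers were present in each, at summed levels of 8388 and 8382 CPM (UMIs of a gene per 1000000 UMIs of the class). Pecam1, Flt1, Emcn and Kdr are among these 10 and were used to choose the cells, so their part of the sum was set by the rule. Tumor cells (at least 3 UMIs of Krt8, Krt18 and Rhox5, none of Pecam1 and Flt1) were 72.2% and 58.5% of kept cells, although the samples were labelled endothelial. Lymphatic cells numbered 20 and 204, fibroblasts 45 and 53, and Ptprc+ cells (the gene of CD45) 441 and 278. A median blood endothelial cell held 5197 UMIs in PyMT-M against 12397 in PyMT-N, so shares of cells are also given after thinning to 3000 UMIs per cell. Thinning left out the shallower cells, and 477 of 583 and 1006 of 1013 blood endothelial cells remained, with 104 of 441 and 231 of 278 Ptprc+ cells. The libraries shared 20 barcodes, and none of them was a blood endothelial cell in both libraries.

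The sequences just before the start sites of Cxcl9 and Cxcl10 are shown because these genes had most of the Cxcr3 ligand UMIs. RefSeq (GRCm38.p6; the counts were made on mm39) gave a promoter for 5 of the 8 genes, with none for Cxcl11, Ccl5 and Cxcl16. The 250 bases before each start site lie on the minus strand of chromosome 5, at chr5:92328080-92328329 for Cxcl9 and at chr5:92348890-92349139 for Cxcl10. They are printed 5′ to 3′ with matches to 3 motifs, searched on both strands, in capitals.
Cxcl9: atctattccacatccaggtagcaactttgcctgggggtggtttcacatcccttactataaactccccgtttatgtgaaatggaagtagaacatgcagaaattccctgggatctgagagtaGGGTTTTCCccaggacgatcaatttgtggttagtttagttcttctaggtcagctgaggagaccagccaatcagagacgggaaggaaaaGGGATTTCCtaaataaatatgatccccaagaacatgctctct
Cxcl10: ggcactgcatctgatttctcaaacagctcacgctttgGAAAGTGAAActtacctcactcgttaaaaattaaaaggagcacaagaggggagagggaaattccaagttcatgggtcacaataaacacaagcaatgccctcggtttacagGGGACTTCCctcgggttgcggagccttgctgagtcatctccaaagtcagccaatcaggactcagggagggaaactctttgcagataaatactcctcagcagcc
The interferon response element was searched as GAAANNGAAA, the interferon gamma activation site as TTCNNNGAA and the kappaB site as GGGNNTTCC. The Cxcl10 window held 1 interferon response element, 213 to 204 bases before the start, and 1 kappaB match, 103 to 95 bases before it. The Cxcl9 window held 2 kappaB matches, at 130 to 122 and 42 to 34 bases. Neither held an activation site of this spelling, and the windows of Cxcl12, Cxcr4 and Ackr3 held none of the motifs. Among 32851 RefSeq windows of the same length, 2.98% held the response element, 7.02% the activation site and 4.98% the kappaB site. Only the spellings given were searched, so a longer stretch such as gggaaattcc in the Cxcl10 window was not counted as a kappaB match. A match describes these letters and is no evidence of binding.

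In blood endothelial cells, 4 of the 8 genes were at least 2-fold higher in PyMT-M than in PyMT-N, which were Cxcl9, Cxcl10, Cxcl11 and Cxcl12. Among all 12557 genes that reached 20 UMIs in the 2 libraries together, 6.25% were that much higher in PyMT-M. The genes that were at least 2-fold lower were 2, Ccl5 and Ackr3, where 5.53% of all genes were. Without the cell with most UMIs of the gene in each library, the log2 ratio was 0.96 for Ccl5 and 0.77 for Cxcl11. Ackr3 fell short of 2-fold under several alternatives given below. The median log2 ratio was 0.33 over the 8 genes and 0.02 over all 12557. The genes were not drawn at random, and their share above the background describes this list only.

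**Figure D1:**
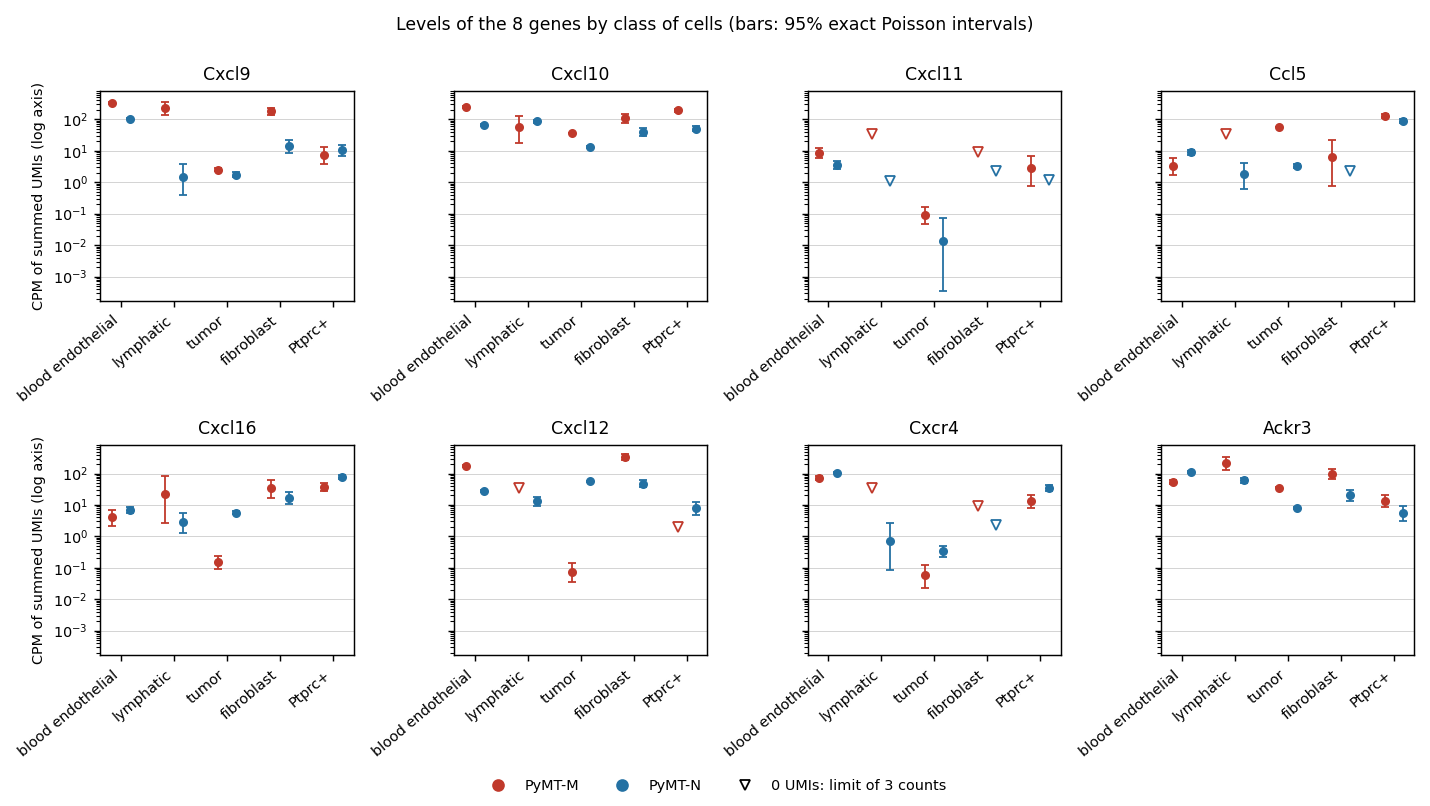
Levels of the 8 genes in 5 classes of cells, as CPM of summed UMIs on a log axis, with PyMT-M in red and PyMT-N in blue, bars for 95% exact Poisson intervals and open triangles for the limit that 0 UMIs allow. Cxcr4 was highest in blood endothelial cells in both libraries (71.8 and 107 CPM), and Cxcl12 in tumor cells lay at 0.0753 CPM in PyMT-M and 56.9 CPM in PyMT-N.

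The Cxcr3 ligands together stood at 582 CPM in the blood endothelial cells of PyMT-M and at 174 CPM in those of PyMT-N. The log2 ratio of their sum was 1.74 (1.65 to 1.83), a 3.34-fold higher level in PyMT-M. The same sum was also higher in PyMT-M in tumor cells (39.4 against 14.7 CPM), in fibroblasts (294 against 55.0) and in Ptprc+ cells (203 against 61.8). Lymphatic cells had 281 against 87.8 CPM, but the PyMT-M value was 25 UMIs in 20 cells, of which 1 cell held 90.0% of the Cxcl9 UMIs. Single ligands did not all follow the sum, since Cxcl10 in lymphatic cells was at 56.2 against 86.3 CPM and Cxcl9 in Ptprc+ cells at 7.54 against 10.6 CPM.

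Cxcl9 had its highest level in blood endothelial cells in both libraries. It had 1065 UMIs (327 CPM) in the blood endothelial cells of PyMT-M and 1456 UMIs (106 CPM) in those of PyMT-N, a log2 ratio of 1.63 (1.51 to 1.74) that lay above 98.0% of all genes. In PyMT-M, the order of classes after blood endothelial cells was lymphatic cells at 225 CPM, where 1 cell held 90.0% of the UMIs, fibroblasts at 184 CPM, Ptprc+ cells at 7.54 and tumor cells at 2.48. The intervals of the blood endothelial, lymphatic and fibroblast levels did not separate lymphatic cells from their neighbours (307 to 347, 137 to 347 and 140 to 238 CPM). In PyMT-N the order was blood endothelial cells, fibroblasts at 14.5 CPM, Ptprc+ cells at 10.6, tumor cells at 1.76 and lymphatic cells at 1.46. There, fibroblasts could not be separated from Ptprc+ cells, nor tumor from lymphatic cells. Blood endothelial cells exceeded tumor cells by a log2 ratio of 7.04 (6.85 to 7.23) in PyMT-M and 5.91 (5.65 to 6.18) in PyMT-N.

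At least 1 UMI of Cxcl9 was seen in 206 of the 583 blood endothelial cells of PyMT-M (35.3%, 31.5 to 39.4) and in 151 of the 1013 of PyMT-N (14.9%, 12.8 to 17.3). Thinned to 3000 UMIs, the shares were 29.6% and 8.55%, so the gap was wider at equal depth. Tumor cells, taken as the reference class, had 2.68% and 1.28% at medians of 23724 and 20771 UMIs, and 0.536% and 0.458% when thinned. Cxcl9 was thus far more frequent in blood endothelial cells than in the tumor cells around them. The UMIs were unevenly spread, with the 5 highest cells holding 22.6% of them in PyMT-M and 38.7% in PyMT-N.

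Cxcl10, the second Cxcr3 ligand, was shared between classes. Its level in blood endothelial cells was 247 CPM (805 UMIs) in PyMT-M and 64.6 CPM (888 UMIs) in PyMT-N, which is a log2 ratio of 1.93 (1.80 to 2.07). In PyMT-M, Ptprc+ cells followed at 193 CPM, fibroblasts at 109, lymphatic cells at 56.2 and tumor cells at 36.9, where the wide interval of the lymphatic cells (18.2 to 131) overlapped both neighbours. In PyMT-N, lymphatic cells were highest at 86.3 CPM, although 1 cell held 51.5% of those UMIs, and blood endothelial cells, Ptprc+ cells (51.2) and fibroblasts (40.5) followed, each overlapping the next in its interval. The log2 ratio of blood endothelial cells was 0.34 (0.07 to 0.61) over Ptprc+ cells and 0.67 (0.27 to 1.10) over fibroblasts. These intervals cover counting error only, and the Ptprc+ UMIs lay in 14 cells. Without the cell with most UMIs, blood endothelial cells of PyMT-N had 55.4 CPM, so the order of these classes is not settled. Tumor cells of PyMT-N had 12.9 CPM, and the log2 ratio between libraries in tumor cells was 1.52 (1.41 to 1.62).

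Cxcl10 was a gene of few cells with many copies. Only 87 blood endothelial cells of PyMT-M (14.9%) and 70 of PyMT-N (6.91%) had a UMI, and 5 cells held 47.1% and 41.0% of the UMIs. Thinned, the shares were 13.4% and 4.57%, against 4.44% and 1.22% of tumor cells. Among Ptprc+ cells of PyMT-M, the myeloid cells (at least 2 UMIs of 6 myeloid genes) held 211 of the 281 UMIs. In the myeloid cells of PyMT-N, 6 UMIs were found, and the lymphoid cells held 124 of 130 there.

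Cxcl11, the Cxcr3 ligand with the fewest counts, was near the limit of what these libraries can show. It had 28 UMIs in 9 blood endothelial cells of PyMT-M and 50 UMIs in 22 cells of PyMT-N, or 8.59 and 3.64 CPM, and the log2 ratio was 1.24 (0.52 to 1.94). The share of cells pointed the other way before thinning (1.54% and 2.17%) and this way after it (1.05% and 0.596%), with overlapping intervals. Without the cell with most UMIs in each library, the log2 ratio was 0.77 (-0.13 to 1.62), below the 2-fold mark, as it was at 0.96 without cells with other markers and at 0.84 as a mean over cells. Outside the blood endothelium, 11 UMIs in tumor cells and 4 in Ptprc+ cells were found in PyMT-M, and 1 UMI, in a tumor cell, in the other 4 classes of PyMT-N. All 9 blood endothelial cells with Cxcl11 in PyMT-M also had Cxcl9, as did 17 of the 22 in PyMT-N. Of the other PyMT-M cells with Cxcl11, 1 of 10 tumor cells and 0 of 3 Ptprc+ cells had Cxcl9.

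**Figure D2:**
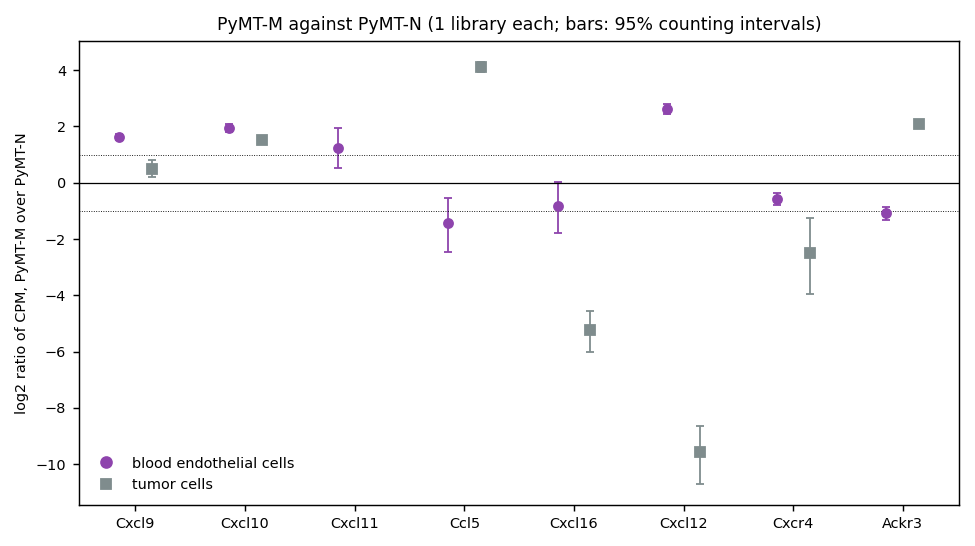
Log2 ratio of CPM, PyMT-M over PyMT-N, for each gene in blood endothelial cells (circles) and tumor cells (squares), with 95% counting intervals and dotted lines at 2-fold. Cxcl12 was at 2.62 in blood endothelial cells and at -9.56 in tumor cells, and Ackr3 at -1.08 and 2.09; Cxcl11 in tumor cells is not drawn because it had fewer than 20 UMIs.

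Ccl5, a chemokine for T cells and monocytes, was a gene of lymphoid cells and of PyMT-M tumor cells. Lymphoid cells among the Ptprc+ cells (at least 2 UMIs of the genes for the T-cell receptor complex and Nkg7) had 299 CPM in PyMT-M and 141 CPM in PyMT-N. Tumor cells had 57.3 CPM in PyMT-M, with 684 of 4849 cells positive, against 3.33 CPM in PyMT-N, with a log2 ratio of 4.11 (3.93 to 4.30). In tumor cells, 3630 of 16833 genes (21.6%) were at least 2-fold higher in PyMT-M and 27.6% at least 2-fold lower, so such ratios were common there. Of the 7 genes described here that could be compared in tumor cells, 3 were higher (Cxcl10, Ccl5 and Ackr3) and 3 lower (Cxcl16, Cxcl12 and Cxcr4).

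Blood endothelial cells held little Ccl5, at 11 UMIs in PyMT-M (3.38 CPM) and 124 in PyMT-N (9.02 CPM). The log2 ratio of -1.42 (-2.46 to -0.53) rested on 1 cell of PyMT-N that held 89.5% of the UMIs. Without the cell with most UMIs in each library, 6 and 13 UMIs were left and the log2 ratio was 0.96 (-0.72 to 2.46). In PyMT-M, the log2 ratio of blood endothelial over tumor cells was -4.09 (-5.09 to -3.25), and its interval overlapped the -4.82 (-5.82 to -3.98) of Ccl7, a chemokine with 11386 UMIs in the same tumor cells. Free RNA from tumor cells as a source of the 11 UMIs was not tested.

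Cxcl16, the ligand of Cxcr6, had overlapping intervals in the Ptprc+ cells and fibroblasts of PyMT-M, at 37.7 CPM (28.4 to 49.1) and 34.4 CPM (17.2 to 61.5, from 11 UMIs). In PyMT-N, Ptprc+ cells had 79.9 CPM (69.3 to 91.7), above the 16.8 CPM (10.5 to 25.5) of fibroblasts. Lymphatic cells had 2 and 8 UMIs. Cells called myeloid, by the broad rule given above, and lymphoid cells both had it. The levels were 42.5 and 35.1 CPM in the High-MAC library and 90.4 and 72.8 CPM in the Low-MAC library. In blood endothelial cells the levels were 3.99 CPM (13 UMIs) and 7.06 CPM (97 UMIs), with a log2 ratio of -0.82 (-1.78 to 0.02) that counting error alone could span. After thinning, 1.47% and 1.19% of blood endothelial cells had a UMI.

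Tumor cells set the lines apart for Cxcl16. PyMT-M tumor cells had 18 UMIs (0.151 CPM) and PyMT-N tumor cells 428 UMIs (5.72 CPM) in 324 of 3278 cells, a log2 ratio of -5.25 (-6.02 to -4.57). In PyMT-N, blood endothelial and tumor cells had about the same level, with a log2 ratio of 0.30 (-0.03 to 0.62) between them, whereas in PyMT-M it was 4.73 (3.58 to 5.84). The receptor Cxcr6 followed the same division, with 0 UMIs in 4849 tumor cells of PyMT-M and 821 UMIs (10.97 CPM) in 503 of 3278 tumor cells of PyMT-N. Against the limit of 3 counts over the class, Cxcr6 was at least 437-fold higher in PyMT-N tumor cells.

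Cxcl12, the ligand of Cxcr4, had the widest separation between libraries among the 8 genes. Blood endothelial cells had 561 UMIs (172 CPM) in PyMT-M and 384 UMIs (27.9 CPM) in PyMT-N, and the log2 ratio of 2.62 (2.43 to 2.81) exceeded 99.4% of all genes. Fibroblasts, a known source of Cxcl12, had 337.5 and 47.4 CPM, a log2 ratio of 2.83 (2.37 to 3.31). In tumor cells the direction was the opposite, with 9 UMIs in 4849 cells of PyMT-M (0.0753 CPM) and 4260 UMIs in 3278 cells of PyMT-N (56.9 CPM). The log2 ratio there was -9.56 (-10.7 to -8.64), and 51.6% of PyMT-N tumor cells had a UMI against 0.186% of PyMT-M tumor cells.

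The order of blood endothelial and tumor cells for Cxcl12 therefore differed by library. In PyMT-M the highest class was fibroblasts, then blood endothelial cells, and blood endothelial cells exceeded tumor cells by a log2 ratio of 11.2 (10.2 to 12.3). In PyMT-N, tumor cells and fibroblasts overlapped in their intervals (55.2 to 58.7 and 36.3 to 60.8 CPM), and blood endothelial cells were below tumor cells at a log2 ratio of -1.03 (-1.18 to -0.88). Lymphatic cells (13.1 CPM) and Ptprc+ cells (7.87 CPM) were lowest in PyMT-N. No UMI of Cxcl12 was found in the 441 Ptprc+ cells of PyMT-M, which allows up to 0.680% of cells with a UMI at their median depth of 1615 UMIs, nor in the 20 lymphatic cells, which are too few to place it.

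Shares of blood endothelial cells with Cxcl12 were 23.5% in PyMT-M against 12.6% in PyMT-N, or 17.0% and 4.37% after thinning. In PyMT-N, where tumor cells had more Cxcl12 than endothelial cells, Ptprc+ cells gave a reference of 4.68% (0.866% thinned) at a median of 5096 UMIs, and the 13 cells behind it had a median of 39348 UMIs. Cxcl14, a chemokine with 48015 UMIs in PyMT-N tumor cells (642 CPM), had 4.003 CPM in the blood endothelial cells of that library. The log2 ratio of Cxcl14 in blood endothelial over tumor cells was -7.33 (-7.73 to -6.94), where that of Cxcl12 was -1.03. Free RNA from tumor cells as a source of the Cxcl12 UMIs was not tested.

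Cxcr4 was found mainly in blood endothelial cells and, at lower levels, in Ptprc+ cells. Blood endothelial cells had 234 UMIs (71.8 CPM) in PyMT-M and 1475 UMIs (107 CPM) in PyMT-N, with a log2 ratio of -0.58 (-0.79 to -0.38), under 2-fold. Ptprc+ cells had 13.0 and 33.8 CPM. Tumor cells had 7 and 25 UMIs, fibroblasts had none, and lymphatic cells had 0 and 2. The receptor was thus far below its blood endothelial level in tumor cells, by log2 ratios of 10.3 and 8.33.

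The difference in Cxcr4 between libraries was the least firm of those with many counts. At all depths 20.9% of PyMT-M and 44.4% of PyMT-N blood endothelial cells had a UMI, but thinned shares were 15.5% (12.4 to 19.1) and 21.4% (18.9 to 24.0). When blood endothelial cells with at least 2 UMIs of myeloid, lymphocyte, fibroblast or mural markers were left out, 552 cells of PyMT-M and 646 of PyMT-N remained and the log2 ratio was -0.0038. This filter rests on a fixed minimum of 2 UMIs at median depths of 5197 and 12397 UMIs, so it takes out deeper cells more readily. Mural markers had UMIs in 9.09% and 45.6% of blood endothelial cells, shares that were not thinned, at summed levels of 202 and 133 CPM. The part of depth in the change of the Cxcr4 ratio was not tested.

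Ackr3, the scavenging receptor, had UMIs in every class. Blood endothelial cells had 174 UMIs (53.4 CPM) in PyMT-M and 1546 UMIs (112.5 CPM) in PyMT-N, with a log2 ratio of -1.08 (-1.31 to -0.85). Thinned shares of 13.0% and 26.3% kept that order, and Ptprc+ cells had 1.92% and 0.866% at the same depth. The 2-fold mark was no longer reached when cells with other markers were left out (-0.58), without cycling cells (-0.96), under the class rules with overlaps (-0.86) or as a mean over cells (-0.95). All 4 other classes were higher in PyMT-M. Tumor cells had 34.9 against 8.22 CPM, a log2 ratio of 2.09 (1.96 to 2.21), and 48.6% against 10.0% of them had a UMI. The log2 ratios were 1.82 (1.05 to 2.51) in lymphatic cells, with 19 UMIs in PyMT-M, 2.28 (1.49 to 3.07) in fibroblasts and 1.32 (0.26 to 2.41) in Ptprc+ cells. The 10 and 8 Ptprc+ cells with an Ackr3 UMI had medians of 26755 and 44187 UMIs, against 1559 and 4944 in those without, and the part of doublets was not tested.

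By class, Ackr3 was highest in lymphatic cells of PyMT-M at 213.5 CPM and in blood endothelial cells of PyMT-N. Fibroblasts followed in PyMT-M with 32 UMIs, at an interval (68.4 to 141 CPM) that overlapped that of lymphatic cells (128.5 to 333), then blood endothelial, tumor and Ptprc+ cells (13.7). In PyMT-N, lymphatic cells followed at 60.5 CPM, then fibroblasts at 20.6, tumor cells at 8.22 and Ptprc+ cells at 5.51, and the last 2 overlapped. Blood endothelial cells exceeded tumor cells by a log2 ratio of 3.78 (3.64 to 3.91) in PyMT-N and of 0.61 (0.39 to 0.83) in PyMT-M.

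**Figure D3:**
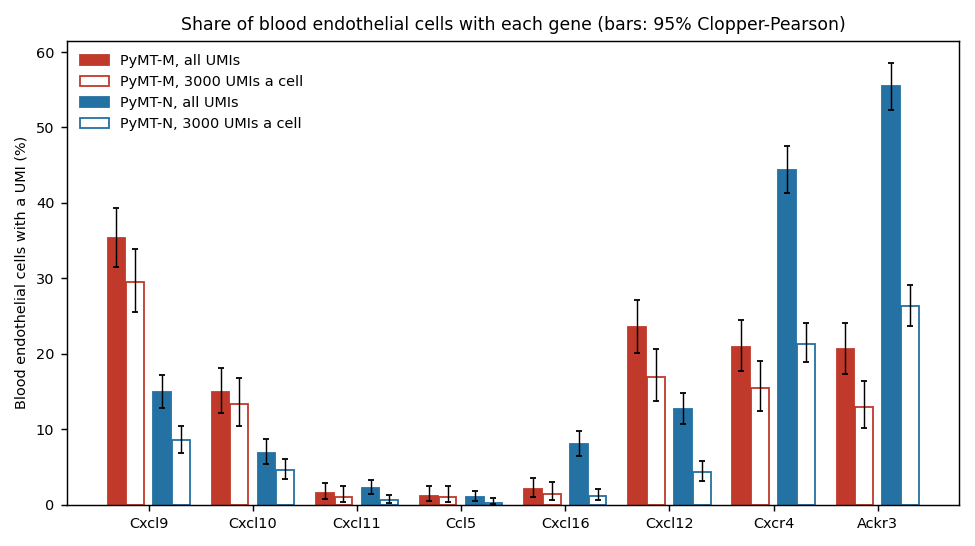
Share of blood endothelial cells with at least 1 UMI of each gene, in percent from 0, with all UMIs (filled bars) and with cells thinned to 3000 UMIs (open bars, over the 477 and 1006 cells that deep), for PyMT-M (red) and PyMT-N (blue), with 95% Clopper-Pearson intervals. Cxcl9 kept its order at equal depth (29.6% and 8.55%), while the gap in Cxcr4 narrowed from 20.9% and 44.4% to 15.5% and 21.4%.

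Cxcr4 and Ackr3 tended to lie in the same cells. In PyMT-M, 44.3% of blood endothelial cells with Cxcr4 also had Ackr3, against 14.3% of those without, and in PyMT-N the shares were 76.4% and 38.7%. Cells with Cxcr4 were somewhat deeper (medians of 5742 against 5012 UMIs, and 13458 against 11474). Cxcl12 was seen in 14.8% of cells with Cxcr4 in PyMT-M against 25.8% of those without, and in 11.6% against 13.5% in PyMT-N. Cxcl9 and Cxcl10 also lay together, with Cxcl10 in 30.1% of cells with Cxcl9 and in 6.63% of those without in PyMT-M, and in 24.5% and 3.83% in PyMT-N. Such shares within a library are descriptions, since cells of 1 library are not replicates.

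The blood endothelial cells were next divided by marker sets, of which no gene described here is a marker. A cell with at least 3 UMIs of a set's markers was in that set, and sets overlap. The interferon-stimulated set (Rsad2, Ifit1, Ifit3 and Cmpk2) held 218 cells of PyMT-M (37.4%) and 221 of PyMT-N (21.8%). Its cells had medians of 5903 and 13057 UMIs, so the fixed minimum of 3 UMIs asked for a higher marker level in PyMT-M. It held 780 of the 805 Cxcl10 UMIs in PyMT-M and 812 of the 888 in PyMT-N. The level of Cxcl10 in it was 559 CPM against 13.4 CPM in the other blood endothelial cells of PyMT-M, a log2 ratio of 5.38 (4.81 to 6.02), and in PyMT-N it was 252.5 against 7.22 CPM, a log2 ratio of 5.13 (4.79 to 5.49). Cxcl11 lay there as well, with 27 of 28 and 44 of 50 UMIs.

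Cxcl9 reached beyond that set. In PyMT-M its level was 541 CPM in the set and 166 CPM outside it, a log2 ratio of 1.70 (1.51 to 1.90), and in PyMT-N it was 337 and 35.2 CPM, a log2 ratio of 3.26 (3.09 to 3.43). Within the interferon-stimulated set, the libraries differed less than over all blood endothelial cells, with log2 ratios of PyMT-M over PyMT-N of 0.68 (0.55 to 0.82) for Cxcl9, 1.15 (1.00 to 1.29) for Cxcl10 and 0.50 (-0.25 to 1.22) for Cxcl11. The unequal depth at which cells entered the set limits these ratios and the Cxcl9 levels outside it. The lowest Cxcl9 levels among sets were in venous cells (Ackr1, Selp and Sele), at 107 CPM in PyMT-M and 30.6 CPM in PyMT-N.

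Cxcl12 had its highest level in the arterial set (Gja5, Gja4, Sox17, Bmx, Sema3g, Hey1 and Fbln5). Arterial cells had 409 CPM against 120 CPM in the other blood endothelial cells of PyMT-M, a log2 ratio of 1.77 (1.52 to 2.01), and those of PyMT-N had 40.2 against 12.03 CPM, a log2 ratio of 1.74 (1.37 to 2.13). In PyMT-N, the interferon-stimulated set had 38.6 CPM (32.1 to 46.0), which overlapped the interval of arterial cells (35.9 to 45.0). The log2 ratio of Cxcl12 in the interferon-stimulated set was 0.64 (0.32 to 0.96) in PyMT-N and -0.42 (-0.68 to -0.17) in PyMT-M. The arterial set was 18.4% of blood endothelial cells in PyMT-M against 50.3% in PyMT-N, shares that rest on a fixed minimum of 3 UMIs at median depths of 5197 and 12397 UMIs. Cxcl12 was higher in PyMT-M within each of the 6 sets, with log2 ratios from 1.32 in venous cells to 3.35 in both arterial and cycling cells.

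Cxcr4 and Ackr3 were low in venous and cycling cells of both libraries. In venous cells Cxcr4 had 3 UMIs in 55 cells of PyMT-M and 5 UMIs in 75 cells of PyMT-N, log2 ratios to the other blood endothelial cells of -3.00 (-5.29 to -1.44) and -4.45 (-6.07 to -3.22). Ackr3 had 5 and 20 UMIs there, with log2 ratios of -1.82 (-3.46 to -0.56) and -2.50 (-3.22 to -1.87). In cycling cells (Mki67, Top2a and Birc5), Cxcr4 was at -1.31 (-1.95 to -0.73) and -2.10 (-2.53 to -1.71) and Ackr3 at -1.58 (-2.39 to -0.85) and -1.65 (-2.003 to -1.31). In tip cells (Apln and Esm1), Cxcr4 had 108 CPM against 42.3 CPM in the other cells of PyMT-M, a log2 ratio of 1.36 (0.95 to 1.77), and in PyMT-N 132 against 88.2 CPM, a log2 ratio of 0.58 (0.43 to 0.73). Other sets also had higher Cxcr4, but the sets overlap, so whether it was particular to tip cells was not tested. Capillary cells (Gpihbp1, Cd300lg and Car4) were 72.7% of blood endothelial cells in PyMT-M and 84.5% in PyMT-N. Their log2 ratios were 1.32 (0.69 to 2.01) in PyMT-M and 2.20 (1.75 to 2.68) in PyMT-N. Arterial cells had 0.42 (-0.05 to 0.87) and 1.08 (0.915 to 1.25). Among cells of 1 set only, which left 9 tip cells in each library, Cxcr4 in PyMT-N tip cells turned to -0.26. The Cxcr4 ratios of capillary cells in both libraries and of PyMT-N arterial cells also turned below 0 there. These cells were set against all other blood endothelial cells, including those with the same markers that were in several sets. The ratios therefore do not compare cells with and without the markers of a set.

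**Figure D4:**
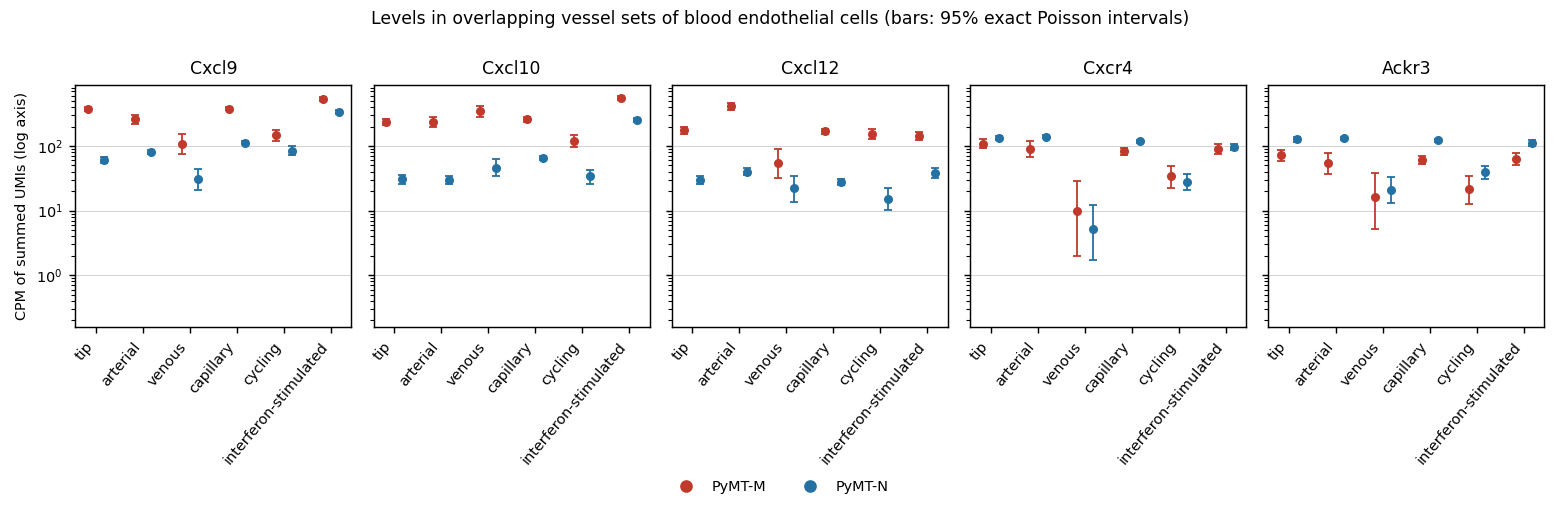
Levels of 5 genes in 6 overlapping sets of blood endothelial cells, as CPM of summed UMIs on a log axis, PyMT-M in red and PyMT-N in blue, with 95% exact Poisson intervals. Cxcl10 was highest in the interferon-stimulated set (559 and 252.5 CPM), Cxcl12 in the arterial set (409 and 40.2 CPM), and Cxcr4 was lowest in the venous set (9.76 and 5.27 CPM). For Cxcl12 in PyMT-N, the interferon-stimulated set (38.6 CPM) overlapped the arterial set in its interval.

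The receptors of the T-cell chemokines were read in the Ptprc+ cells that remained after depletion of CD45. Cxcr3 was seen in 5 of 96 lymphoid cells of PyMT-M (5.21%) and 17 of 118 of PyMT-N (14.4%), at medians of 2642 and 8288 UMIs. Cxcr6 was seen in 17.7% and 25.4% of them. Cells called myeloid, by the same broad rule, had Ccr1 at 72.4 and 22.4 CPM, and Ccr3 had 4 and 8 UMIs over all Ptprc+ cells. Blood endothelial cells had 2 and 4 UMIs of Cxcr3, and none of Cxcr6 or Ccr3. The depletion sets how many of these cells were left, so their numbers do not measure infiltration.

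Other genes of the pathway were taken from lists. Of 18 interferon-stimulated genes, 18 could be compared in blood endothelial cells, 15 were at least 2-fold higher in PyMT-M and none lower, with a median log2 ratio of 1.30, where 6.25% of all genes compared were that much higher and 5.53% that much lower. The highest were Ifit3 at 1.96, Isg15 at 1.95 and Cd274, the gene of the checkpoint ligand PD-L1, at 1.73, and the lowest were Irgm1 at 0.92, Ifit2 at 0.95 and Gbp2 at 0.99. Of 20 genes of interferon and TNF signaling, 17 could be compared, 4 were higher and none lower, against the same 6.25% and 5.53%, with a median of 0.05. Irf7, an interferon-induced transcription factor, was at 1.89, Stat2 at 1.06 and Socs1, a feedback inhibitor, at 1.02, whereas Nfkbia (-0.34), Rela (-0.30) and Nfkb1 (-0.24) of the NF-kappaB pathway were below 0.

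Among 11 receptors and decoys, only Ackr1 and Ackr2 could be compared in blood endothelial cells, and the others had fewer than 20 UMIs. Ackr1, a decoy of venules, had 58.0 against 21.8 CPM, a log2 ratio of 1.41 (1.14 to 1.68), and Ackr2, a decoy of lymphatic vessels, had 1.53 against 12.7 CPM, at -3.05 (-4.69 to -1.80). Of 30 other chemokines, 7 could be compared, 2 were higher and 2 lower, counts too small to read against 6.25% and 5.53%. Ccl2, which draws monocytes, was at 4.14 (3.80 to 4.48) and Cx3cl1, a membrane-bound chemokine, at 2.20 (1.77 to 2.64), with Cxcl1 at 0.98 (-0.05 to 1.94). Ccl21a, a lymphatic chemokine, was at -6.89 (-12.2 to -4.41) and Cxcl14 at -3.71 (-9.04 to -1.17), each with 1 UMI in PyMT-M, and Ccl25 at -0.05. Other classes of the same library held far more of some of these. Lymphatic cells had 126 UMIs of Ccl21a in PyMT-M and 32507 in PyMT-N. Tumor cells had Ccl2 at 495 against 2.17 CPM and Cxcl14 at 0.0836 against 642 CPM. Free RNA from these cells as a source of the blood endothelial UMIs was not tested. Of 15 genes for the processing and partners of Cxcl12 and Cxcl16, 12 could be compared, 1 was higher and none lower, which is near the 6.25% of all genes. It was Cd74 at 1.86 (1.12 to 2.59), with Adm, a peptide that Ackr3 also clears, at 0.996 (0.85 to 1.14) and Mmp2 at 0.52. The lowest were Adam10, a protease that sheds Cxcl16, at -0.60, Arrb1 at -0.56 and Gnai2 at -0.39.

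Markers of other cells in the blood endothelial cells were uneven. Mural markers summed to 202 CPM in PyMT-M and to 133 CPM in PyMT-N, with UMIs in 9.09% and 45.6% of cells. Lymphatic markers were at 63.2 and 149 CPM, with UMIs in 23.7% and 70.7% of cells. The mural and lymphatic shares were not thinned, at median depths of 5197 and 12397 UMIs. Myeloid markers were at 12.3 and 15.7 CPM. Of 11 myeloid markers, 6 and 9 had UMIs, and Csf1r, Adgre1 and Itgam were at 0 in PyMT-M. Lymphocyte markers were at 3.68 and 3.28 CPM. Of 12 lymphocyte markers, 3 and 7 had UMIs, and Nkg7, Cd8a and Gzmb were at 0 in both. Tumor epithelial markers were at 13.8 and 8.88 CPM, fibroblast markers at 37.7 and 9.24, and platelet and erythroid markers at 21.5 and 22.2. The tumor epithelial level was capped in part by the class rule, which allowed at most 1 UMI of Krt8, Krt18 and Rhox5. Without the cells that had at least 2 UMIs of myeloid, lymphocyte, fibroblast or mural markers, the log2 ratio was 1.44 for the summed Cxcr3 ligands, 2.27 for Cxcl12 and -2.05 for Ccl5. That fixed minimum takes out deeper cells more readily. The part of lymphatic, tumor epithelial, platelet and erythroid markers in the results was not tested.

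The genes whose levels ran most like each member over the 10 combinations of 5 classes and 2 libraries were taken by Pearson's r of log2(CPM + 1). They were Pik3c2b (0.97), Klk8 (0.97) and Lcorl (0.96) for Cxcr4, Dusp8 (0.97), Vangl1 (0.93) and Pla2g12a (0.93) for Ackr3, and Thnsl2 (0.97), Nudt12 (0.96) and Atl3 (0.95) for Cxcl12. For Cxcl10 they were Isg20 (0.91), Igtp (0.90) and Ube2l6 (0.90). For Cxcl9 they were Snx11 (0.93), Taf9b (0.91) and Glul (0.90), for Ccl5 Fyb (0.95), Kif21b (0.94) and Rpl27 (0.93), and for Cxcl16 Aff1 (0.95), Ptger4 (0.94) and Camk4 (0.91). Cxcl11 had 94 UMIs, too few for this measure. The 10 points share 2 libraries and differ in depth, and r describes them only.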

How the data were processed

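Droplet-based 3′ single-cell RNA sequencing was analyzed for 2 libraries. Whole-number UMI counts for each gene in each barcode were deposited by the authors, made with Cell Ranger 8.0.0 on mm39 per the submitters' processing notes and not normalized. The labels name collagenase I for the digestion and the study's methods name collagenase II with dispase II. Kept cells had at least 200 genes and at most 10% mitochondrial UMIs. Cells that met more than 1 class rule were left out of the classes (60 in PyMT-M and 88 in PyMT-N), after lymphatic cells had been taken first, and 721 and 693 cells met none. UMIs were summed per class and library and divided by all UMIs of those cells. Ratios carry exact conditional Poisson intervals and shares Clopper-Pearson intervals at 95%, and a count of 0 was taken to allow 3 counts. A gene was compared at 20 or more UMIs over both libraries and called at 2-fold. Ratios and intervals were tested on summed counts simulated from the Poisson model that the intervals assume. The simulation held no uneven spread between cells, so it could not show how the intervals hold for UMIs concentrated in a few cells. Doublets were scored with Scrublet in scanpy 1.11.5, which called 0 cells of PyMT-M and 148 of PyMT-N, so it did not work for PyMT-M, and no cell was removed for the main values. Sums and intervals were computed with scipy 1.17.1 and numpy 2.4.6 under Python 3.11.15, tables were handled in pandas 2.3.3, and figures were drawn with matplotlib 3.10.9.

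Named genes are the 8 genes, the 3 highest and 3 lowest ratios of each list in blood endothelial cells, the receptors of the chemokines and the 3 genes most like each member among those with at least 200 UMIs. 1 gene that this rule names is not reported here. The genes, lists and cell rules were chosen with earlier results of these data known. Alternatives covered cell filters, doublets, class rules, other cell markers, cycling cells, means over cells, totals, centring, thinning and set rules.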

Additional observations from a re-analysis of the deposited data

Results flagged for a closer look

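For 3 genes the ratio between libraries had opposite directions in blood endothelial cells and in another class, with both counting intervals away from 0. With 1 library per line the difference between classes was not tested. Cxcl12 was higher in PyMT-M in blood endothelial cells (log2 ratio 2.62) and lower in tumor cells (-9.56), where 9 UMIs were in PyMT-M and 4260 in PyMT-N. Ackr3 was lower in PyMT-M in blood endothelial cells (-1.08) and higher in tumor cells (2.09), fibroblasts (2.28), lymphatic cells (1.82, from 20 cells in PyMT-M) and Ptprc+ cells (1.32, from 20 and 14 UMIs in 10 and 8 cells whose median depths were 26755 and 44187 UMIs). Ccl5 was lower in PyMT-M in blood endothelial cells (-1.42) and higher in tumor cells (4.11) and Ptprc+ cells (0.59), but its blood endothelial ratio turned to 0.96 without 1 cell in each library.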

How the results depend on the processing

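Each ratio between libraries in blood endothelial cells was recomputed under 10 alternatives, and under 1 more, leaving out the cell with most UMIs of the gene, that was chosen after seeing the data. Of 98 such values, 76 stayed within the counting interval of the reported one, 21 moved outside it with the same direction and 1 reversed, Ccl5 without its top cell (0.96). The doublet alternative left out the 403 and 336 cells with the highest scores. It kept 580 of 583 and 1006 of 1013 blood endothelial cells, so it was a weak check for them. Centring was also a weak check, since the median log2 ratio was 0.02. The log2 ratio of the summed Cxcr3 ligands ran from 1.35 to 1.90, and it moved with cells with other markers left out (1.44), cycling cells left out (1.90) and means over cells (1.35). Cells within 2-fold of the median gene number, which kept 261 and 970 cells, gave Cxcl10 2.10, Ccl5 -2.69, Cxcl12 2.39 and Cxcr4 -0.80. At most 5% mitochondrial UMIs gave Cxcl10 2.27. The class rules with overlaps gave Cxcl9 1.86, Cxcl10 1.64, Cxcl12 2.89 and Cxcr4 -0.35. Leaving out cells with other markers gave Cxcl9 1.40, Cxcl10 1.51, Cxcl12 2.27, Cxcr4 -0.0038 and Ackr3 -0.58, and leaving out cycling cells Cxcl9 1.82. Means over cells gave Cxcl9 1.29, Cxcl10 1.48 and Cxcl12 2.82. The causes were not tested. The count of genes at least 2-fold higher was 3 or 4 throughout, and that of genes at least 2-fold lower, 2 as reported, was 1 without cells with other markers, 1 without cycling cells, 0 for means over cells, 1 among genes with at least 200 UMIs and 3 at 1.5-fold. Cxcl16, above -1 as reported, was at -1.61 under the class rules with overlaps and at -1.003 without its top cell.

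Of 143 ratios of blood endothelial over tumor cells, 121 stayed within their interval and none reversed. Of 132 ratios of vessel sets, 8 reversed, each among cells of 1 set only, of which a set held 4 to 161: Cxcl9 in capillary (-0.11), Cxcl10 in capillary (-4.82), Cxcr4 in capillary (-0.68) and Ackr3 in tip cells (-1.36) of PyMT-M, and Cxcl9 in arterial (1.32) and Cxcr4 in arterial (-0.72), capillary (-0.34) and tip cells (-0.26) of PyMT-N. In this alternative the other side of the ratio was all other blood endothelial cells, including those with the same markers in several sets. Of 96 shares, 83 moved, each to a lower share. No paired analysis was possible because each line has 1 library. Depth limits Cxcl11, Ccl5 and Cxcl16 in blood endothelial cells, with 28, 11 and 13 UMIs in PyMT-M.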
